A study of Mus musculus with 24 samples.

Results

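The 37 genes described here encode collagens, laminins and other proteins of the extracellular matrix, the protein meshwork that surrounds cells and underlies epithelia. They were taken by symbol: the collagens, the alpha, beta and gamma chains of the laminins, the fibulins, lysyl oxidase and its relatives, the Timp protease inhibitors, and Bgn, Dcn, Lum, Sparc, Tgfbi, Postn, Thbs1, Ccn1 (formerly Cyr61) and Ccn2 (formerly Ctgf). Of 67 such genes with a probe, 37 were detected on both arrays of at least 1 of the 12 groups, with a detection p-value under 0.01, and they were among 8932 genes tested. Of the 30 genes that did not pass, 23 were detected on 0 of 24 arrays, among them Col1a2, the partner chain of Col1a1 in type I collagen, and the stromal genes Lum and Postn. The gene nearest to passing was Col11a2, detected on 3 arrays but on both arrays of no group. Among those just inside, Col25a1 passed through ESCm alone, at 5.51 and 5.56 (log2 intensity, the unit of all levels below). Fibronectin (Fn1) was not analysed here.

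Basement membranes are sheets built from laminin trimers and from type IV collagen, whose most common form joins alpha 1 and alpha 2 chains encoded by Col4a1 and Col4a2. Fibrillar collagens such as types I, III and V form the fibres of stroma and are cross-linked by lysyl oxidases, while matricellular proteins such as Sparc, Tgfbi, Thbs1, Ccn1 and Ccn2 adjust how cells attach and respond to growth factors. In the early mouse embryo, laminin and type IV collagen form the first basement membranes, and cultured pluripotent cells are commonly kept on matrix proteins or on fibroblast feeder cells that secrete them.

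The study profiled mouse embryonic stem (ES) cells, epiblast stem cells (EpiSCs), which come from the epiblast after implantation, and a pair of embryonal carcinoma lines, F9 and P19, which are stem cells of teratocarcinomas. Lines were compared with and without extra wild-type Sox2, a transcription factor of pluripotent cells. Each of the 12 groups had 2 arrays that the series text calls biological replicates. Without extra Sox2 there were male ES cells (ESCm), female ES cells labelled OG2 (ESCf), female EpiSCs labelled OG2 (EpiSCf), male EpiSCs labelled GOF18 (EpiSCm), F9 EC and P19 EC, the last pair labelled male. With Sox2 overexpression there were F9-Sox2, P19-Sox2, Epi-Sox2f from the female OG2 EpiSCs, and 3 groups from the male GOF18 EpiSCs: EpiSox2mL2, grown in EpiSC medium, and the ESC-like EpiSox2mE1 and EpiSox2mE2, grown in ESC medium. No treatment time is labelled. The promoter driving Sox2, the number of clones behind a line and the use of feeder cells are not given in the sources used here.

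The 8 arrays of the GOF18 family were dimmer, with median intensities of 90.2 to 101, than the other 16, at 119 to 152. Paired arrays correlated with r of 0.974 to 0.994 for the 37 genes. Against parent cells, Sox2 rose by 0.82 to 1.29 log2 units in 5 groups given extra Sox2, and was not raised on the arrays labelled Epi-Sox2f (log2 -0.18, SE 0.13, adjusted p = 0.324 in limma). Pou5f1, which marks pluripotent cells, had group means between 12.58 and 13.88. Klf4, which marks ES cells, had means of 10.75 and 10.39 in ESCm and ESCf but was detected on 0 arrays of EpiSox2mE1 and of EpiSox2mE2, while the EpiSC marker Fgf5 stood at 10.62 and 10.84 there. Against EpiSCm, 4 of 12 tested genes of pluripotent cells rose and 2 fell in EpiSox2mE1, and 4 rose and 0 fell in EpiSox2mE2. Nanog rose by 0.88 and 0.86 log2 units. Esrrb had means of 8.98 and 9.57 there, against 7.77 in EpiSCm and 12.69 in ESCm. In EpiSox2mL2, Esrrb stood at 11.20 and Fgf5 at 7.99, against 10.50 for Fgf5 in EpiSCm. The Y-linked gene Eif2s3y was not detected on the F9 arrays, which are labelled male.

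Matrix genes were most widely detected in ES cells and in EpiSox2mE1. On both arrays, 29 of the 37 were detected in ESCm and 28 in each of ESCf and EpiSox2mE1. The counts were 18 in EpiSCf, 19 in EpiSCm, 18 in P19 EC and 12 in F9 EC. They were 15 in F9-Sox2, 19 in P19-Sox2 and 20 in Epi-Sox2f, and 24, 28 and 24 in EpiSox2mL2, EpiSox2mE1 and EpiSox2mE2. Of all 25697 probes, between 9840 (F9 EC replicate 1) and 11415 (EpiSCm replicate 1) were detected per array. Detection on both arrays of every group held for 8 genes: Col5a1 and Col4a1, the endostatin-bearing Col18a1, the laminin gamma 1 chain Lamc1, the fibulin Fbln1, the metalloproteinase inhibitor Timp1, Sparc and Ccn2. At the other end, 5 genes were detected on both arrays of 1 group alone. These were the fibrillar collagen Col5a2 in P19 EC, Timp4 in P19-Sox2, Col25a1 in ESCm, and Col23a1 and the lysyl oxidase relative Loxl4 in EpiSox2mE1.

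**Figure D1:**
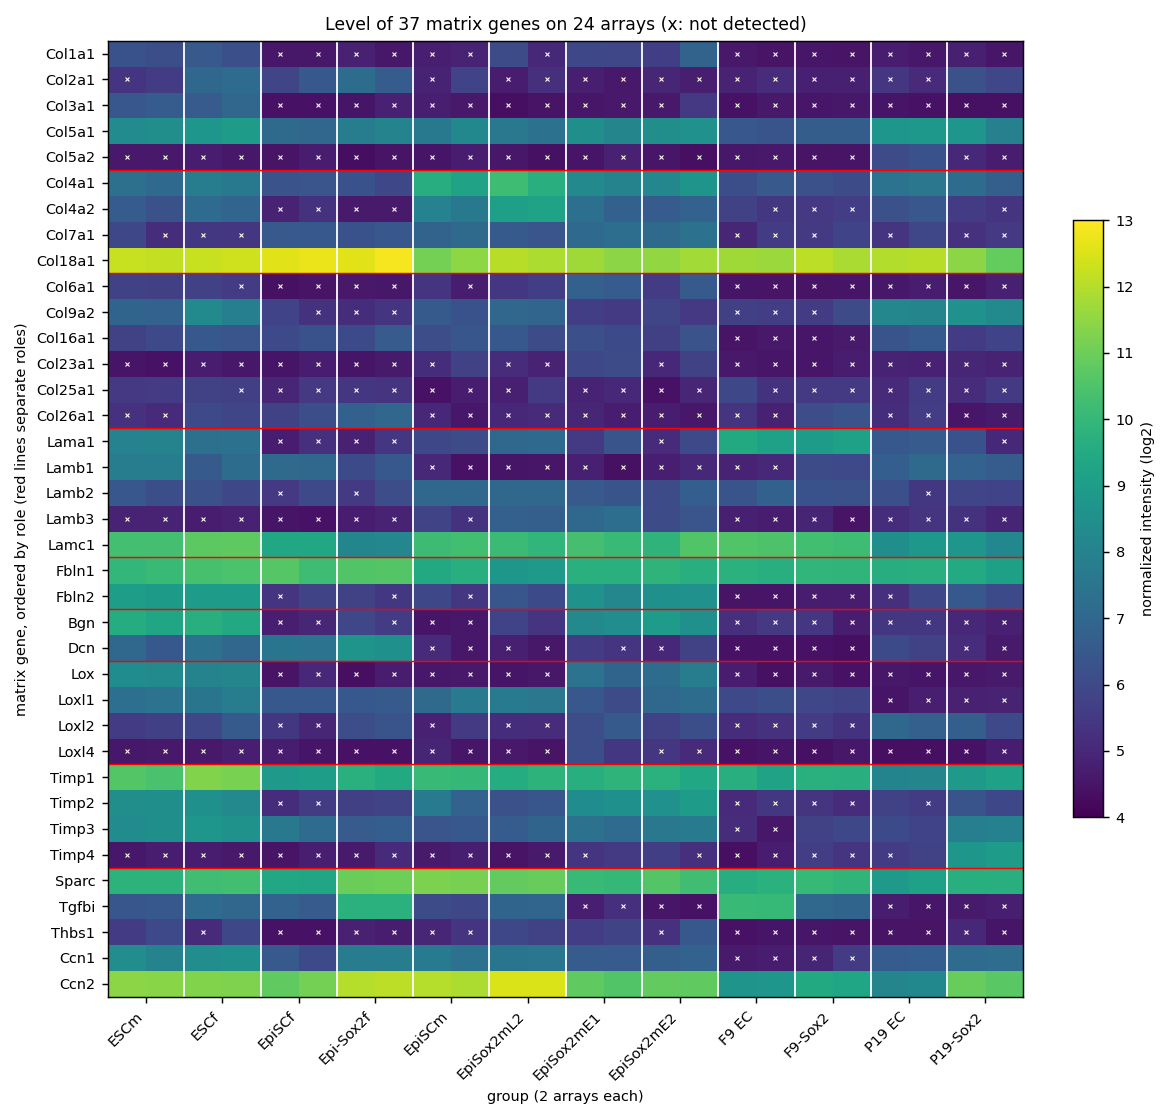
Log2 normalized intensity of the 37 matrix genes (rows, ordered by role) on the 24 arrays (columns, 2 a group), with crosses where an array did not detect the gene. Bgn, Lox and Fbln2 are bright in ES cells and in the ESC-medium groups and dark in EpiSC and carcinoma groups, whereas 8 genes are detected in all 12 groups.

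The 12 group means of a gene spanned at least 2 log2 units for 25 of the 37 genes and at least 4 units for 8. Tgfbi, a secreted adhesion protein induced by TGF-beta, had the widest span, 5.55 units, from 4.49 in EpiSox2mE2 to 10.04 in F9 EC. Biglycan (Bgn), a small leucine-rich proteoglycan that binds collagen, spanned 5.02 units, from 4.54 in EpiSCm to 9.56 in ESCf. The highest mean lay in ESCf or ESCm for 14 genes, in a GOF18 group for 12, in a P19 group for 5, in EpiSCf or Epi-Sox2f for 4, and in an F9 group for Lama1 and Tgfbi. The narrowest span, 1.18 units, was that of Col25a1.

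The 5 laminin chains, which assemble as alpha, beta and gamma trimers, had unlike patterns. Lamc1 was detected on all 24 arrays, from 8.13 and 8.18 in Epi-Sox2f to 10.74 and 10.76 in ESCf. Lama1 was highest in F9 EC and not detected in EpiSCf or Epi-Sox2f. Lamb1 was detected in ES cells, the female EpiSC groups, P19 cells and F9-Sox2 but on none of the 8 GOF18 arrays. Lamb2 was highest in EpiSCm, at 6.99 and 7.06, and EpiSox2mL2, at 7.02 and 7.04. In EpiSox2mE1 and EpiSox2mE2 its means were 6.42 and 6.38, below the 6.57 of F9 EC. Lamb3 was detected only on GOF18 arrays, on both arrays of EpiSox2mL2, EpiSox2mE1 and EpiSox2mE2 and on 1 of EpiSCm.

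Among the other roles, the basement membrane collagen Col18a1 spanned 1.58 units over the group means and Ccn2 4.32. Fbln1 stood between 8.75 and 10.63 on all 24 arrays. Col2a1, the main cartilage collagen, was detected on both arrays of ESCf (mean 7.07), EpiSCf (5.86 and 6.47), Epi-Sox2f (7.18 and 6.63) and P19-Sox2 (6.24 and 5.93). Col6a1, of the beaded filaments around cells, was highest in EpiSox2mE1 at 6.77 and 6.63 and undetected on all F9, P19 and female EpiSC arrays. Thbs1, a regulator of TGF-beta activation, stayed at or under 6.48 on all arrays.

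Members that varied together were found by Pearson correlation over the 12 group means, given as a description because the groups share lines and normalization. The 5 closest of 666 pairs were Bgn with Lox (r = 0.980), Col1a1 with Fbln2 (0.955), Col4a1 with Col4a2 (0.954), Fbln2 with Lox (0.951) and Fbln2 with Timp2 (0.940). The median over all pairs was 0.16. Within these 5 pairs, Bgn, Lox, Fbln2, Timp2 and Col1a1 made 1 linked set and the type IV collagen chains a separate pair. The limits of the set depend on the cut at 5 pairs: Col1a1 also varied with Thbs1 (0.904), and Timp2 with Col6a1 (0.896). Lox oxidises lysines to cross-link collagen and elastin, Fbln2 binds basement membrane and elastic fibre proteins, and Timp2 inhibits matrix metalloproteinases.

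The annotated promoters of these co-varying genes are shown as RefSeq gives them for GRCm38.p6, each 300 bases from 250 before to 50 after the gene start, read 5′ to 3′ on the gene's strand. Capitals mark matches on either strand to GGGCGG (the GC box), TATAAA (the TATA box), CCAAT, and ACAATG (the core of Sox sites), and neighbouring matches can touch or overlap. Col4a1 lies on the minus strand at chr8:11312777-11313076 and Col4a2 on the plus strand at chr8:11312555-11312854, so the genes are divergent neighbours. The last 78 bases of one window are the reverse complement of the last 78 of the other.
Col4a1: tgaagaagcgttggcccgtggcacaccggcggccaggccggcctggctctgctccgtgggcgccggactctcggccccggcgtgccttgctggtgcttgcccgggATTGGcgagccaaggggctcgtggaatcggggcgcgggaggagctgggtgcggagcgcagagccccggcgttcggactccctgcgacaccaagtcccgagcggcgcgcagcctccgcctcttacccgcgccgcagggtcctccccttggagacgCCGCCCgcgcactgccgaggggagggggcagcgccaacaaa
Col4a2: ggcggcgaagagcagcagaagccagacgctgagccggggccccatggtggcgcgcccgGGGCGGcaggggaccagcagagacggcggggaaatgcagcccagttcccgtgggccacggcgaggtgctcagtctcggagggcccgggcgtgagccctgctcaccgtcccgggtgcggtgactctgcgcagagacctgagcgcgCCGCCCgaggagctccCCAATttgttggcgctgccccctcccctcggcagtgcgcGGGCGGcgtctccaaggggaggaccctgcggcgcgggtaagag
The other windows belong to the set that was high in ES cells: Bgn at chrX:73483351-73483650 (plus strand), Fbln2 at chr6:91212514-91212813 (plus) and Timp2 at chr11:118355362-118355661 (minus).
Bgn: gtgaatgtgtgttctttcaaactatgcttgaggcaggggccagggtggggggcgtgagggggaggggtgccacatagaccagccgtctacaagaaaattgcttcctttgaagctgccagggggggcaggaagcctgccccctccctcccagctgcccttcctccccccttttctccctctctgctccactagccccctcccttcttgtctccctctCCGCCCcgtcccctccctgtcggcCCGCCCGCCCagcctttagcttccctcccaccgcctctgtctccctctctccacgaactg
Fbln2: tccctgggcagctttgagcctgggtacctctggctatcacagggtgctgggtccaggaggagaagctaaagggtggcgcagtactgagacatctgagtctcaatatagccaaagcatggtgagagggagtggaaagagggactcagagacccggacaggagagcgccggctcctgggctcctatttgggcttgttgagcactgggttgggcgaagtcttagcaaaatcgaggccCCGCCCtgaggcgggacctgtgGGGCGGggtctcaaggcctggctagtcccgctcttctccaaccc
Timp2: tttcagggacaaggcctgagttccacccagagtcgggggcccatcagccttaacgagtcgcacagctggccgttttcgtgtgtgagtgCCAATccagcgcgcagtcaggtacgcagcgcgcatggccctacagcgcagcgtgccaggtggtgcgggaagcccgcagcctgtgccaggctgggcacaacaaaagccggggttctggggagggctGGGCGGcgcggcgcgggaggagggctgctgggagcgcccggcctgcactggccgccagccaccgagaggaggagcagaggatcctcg
All 5 held the GC box, at 1 to 3 places, and Col4a1, Col4a2 and Timp2 held CCAAT once each. Their GC content was 60.3% to 74.0%, against a median of 52.7% over 32851 promoter windows. Over all windows, the GC box was present in 35.7%, TATAAA in 13.6%, CCAAT in 37.4% and ACAATG in 12.6%. Of 25 members with a window, 19 held the GC box (76.0%), 2 held TATAAA, 9 held CCAAT and 0 held ACAATG. These letters describe the windows and locate no binding.

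Between female EpiSCs and female ES cells, matrix genes were mostly lower in the EpiSCs: 23 of 37 fell and 1 rose, where 60.2% of all genes tested were called, 27.3% as lower and 32.9% as higher. The median change of the 37 was -1.03 log2 units, and that of all genes 0.07. The genes that fell included fibrillar and basement membrane collagens, lysyl oxidases, Timp1, Timp2 and Timp3, and all 5 matricellular genes, of which Ccn2 and Tgfbi lay near the threshold (adjusted p = 0.0451 and 0.0496). By role, 4 of 5 fibrillar collagens, 2 of 4 basement membrane collagens, 2 of 5 laminins, 3 of 4 lysyl oxidases and 3 of 4 protease inhibitors fell. In bulk RNA, fewer cells of a type and less RNA per cell cannot be told apart.

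Bgn read 9.66 and 9.47 on the ESCf arrays and 4.76 and 4.98 on the EpiSCf arrays, where neither array detected it. It was at least 14.8-fold lower (log2 -4.69, SE 0.22, adjusted p = 3.02e-12). Here and below, "at least" sets the brighter mean against the lowest level that each array of the dimmer group could detect, and "adjusted p" is limma's, adjusted by Benjamini-Hochberg over all genes of the comparison. Lox read 8.04 and 8.11 in ESCf against 4.47 and 5.03 in EpiSCf, at least 5.28-fold lower (adjusted p = 1.91e-10). Timp2 read 8.51 and 8.23 against 5.18 and 5.56, at least 6.45-fold lower (adjusted p = 3.02e-09). For all 3 genes both ES cell arrays were high and both EpiSC arrays undetected. Genes named for the size of their change were required not to overlap between groups, so separation of their arrays, here and below, is part of their choice and no support for it.

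Fbln2 read 8.98 and 8.96 in ESCf and 5.35 and 5.83 in EpiSCf, a 10.4-fold fall (SE 0.24 on the log2 scale), with 1 of the 2 EpiSCf arrays detecting it. Its second probe, dim at a mean of 5.26, also fell (log2 -1.54). Col9a2, a cartilage-type collagen that decorates fibrils, fell 5.76-fold, with 1 of 2 EpiSCf arrays detecting it, and Lama1, the laminin alpha chain of early embryonic basement membranes, fell at least 3.21-fold. Fibrillar collagens followed: Col5a1 fell 3.46-fold from a mean of 8.84, and Col3a1 and Col1a1 dropped below detection from 6.77 and 6.35. Col3a1 passed the detection filter through ESCf and ESCm alone, so its lower level in EpiSCs of either pair is a description with no test. The 1 gene that rose was Col7a1, the anchoring fibril collagen of skin, which stood at 6.50 and 6.48 in EpiSCf against 5.45 and 5.43 in ESCf, at least 1.77-fold higher (adjusted p = 0.000944).

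The type IV chains fell as well. Col4a1 read 7.78 and 7.64 in ESCf and 6.32 and 6.38 in EpiSCf, 2.57-fold lower (log2 -1.36, SE 0.22, adjusted p = 2.77e-05). Col4a2 read 7.15 and 6.95 against 4.88 and 5.32, at least 2.58-fold lower (log2 -1.95, SE 0.19). Lamc1, the gamma chain of most laminins, fell 2.61-fold and Sparc, which binds collagen, fell 1.91-fold. Lamb1, the laminin beta 1 chain, read 6.53 and 7.17 against 7.12 and 7.04, groups that overlapped (log2 0.23, SE 0.23, adjusted p = 0.404).

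In the male pair, 18 genes fell and 8 rose from ESCm to EpiSCm, where 69.7% of all genes were called, 28.6% as lower and 41.1% as higher, and the members' median was -0.46 against 0.18 over all genes. Bgn fell from 9.56 and 9.33 to 4.51 and 4.58, at least 17.1-fold (log2 -4.90, SE 0.22, adjusted p = 2.19e-12). Lox fell from 8.39 and 8.26 to 4.60 and 4.61, at least 7.86-fold, and Fbln2 fell 9.63-fold, with 1 of the 2 EpiSCm arrays detecting it. Each was again high on both ES cell arrays and low on both EpiSC arrays. Timp2 fell 2.30-fold and remained detected on both EpiSCm arrays, at 7.68 and 6.82. Col25a1 passed the detection filter through ESCm alone, so its lower level in EpiSCm is a description with no test.

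Of the 23 genes that fell in the female pair, 13 also fell in the male pair (56.5%), which is 72.2% of the 18 that fell there. Over all genes, 1380 fell in both pairs, 56.6% of those that fell in the female and 54.0% of those that fell in the male pair. The pairs share no arrays. The 13 were Bgn, Lox, Fbln2, Timp1, Timp2, Timp3, Col1a1, Col3a1, Col6a1, Col9a2, Lama1, Tgfbi and Ccn1. Col3a1 passed the filter through the ES cell groups alone, so its place among them is a description with no test. Ccn1 was measured by several probes that disagreed: in the male pair the brightest and a second fell, by 0.64 and 1.14 log2 units, while another rose by 2.10. The second probe of Tgfbi was called in neither pair. Timp3, which binds matrix tightly, fell 2.42-fold in the female and 3.97-fold in the male pair.

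The type IV collagens went the opposite way in the male pair. Col4a1 read 7.31 and 7.08 in ESCm and 9.62 and 9.18 in EpiSCm, 4.62-fold higher (log2 2.21, SE 0.22, adjusted p = 5.79e-08). Col4a2 rose 2.64-fold, from 6.61 and 6.23 to 8.0 and 7.63 (log2 1.40, SE 0.19). Sparc rose 2.62-fold and Col7a1 rose 2.68-fold, the latter detected on 1 of 2 ESCm arrays. The male EpiSC arrays lay above the male ES cell arrays for all 4.

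The test of the difference between the pairs put the female effect below the male one by -3.57 log2 units for Col4a1 (SE 0.30, adjusted p = 4.74e-08), -3.35 for Col4a2 (SE 0.27) and -2.33 for Sparc (SE 0.19). Lamb1 showed the reverse, a difference of 3.26 (SE 0.32, adjusted p = 2.25e-07): it fell from 7.76 and 7.79 in ESCm to 5.05 and 4.44 in EpiSCm, at least 5.38-fold. Decorin (Dcn), a collagen-binding proteoglycan, fell at least 2.64-fold in the male pair, was not called in the female pair and had a difference of 2.20 (SE 0.34), while its dim second probe gave a difference of 0.37 that was not called. In all, 18 of the 37 genes differed between the pairs, 4 upward and 14 downward, where 50.7% of all genes did, 23% upward and 27.6% downward.

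**Figure D2:**
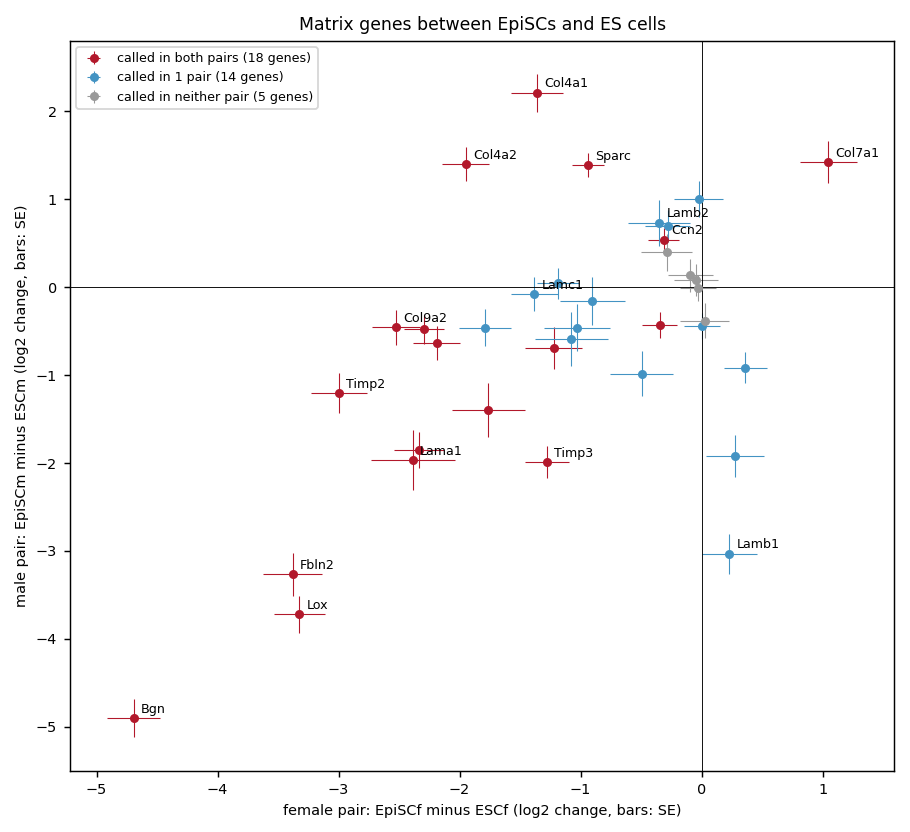
Log2 change of the 37 matrix genes from ES cells to EpiSCs in the female pair (x axis) and the male pair (y axis), with standard errors as bars. Bgn, Lox and Fbln2 lie far down in both pairs, whereas Col4a1, Col4a2 and Sparc lie left of 0 and above 0.

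The EpiSCm arrays belong to the 8 dimmer arrays and ESCm to the brighter 16, and ESCm carries no GOF18 label, so line, array set and cell state cannot be told apart in the male pair. With median scaling in place of quantile normalization, the median of all genes was -0.17 in the male pair and 0.24 in the female pair, and the members' male split became 6 up and 23 down. Ccn2 (main log2 0.54) and Lamb2 (0.73), the laminin beta 2 chain, were called up in the male pair but not under that scaling (0.07 and 0.26). The Lamb2 call was also lost without EpiSCm replicate 1, EpiSCm replicate 2 or ESCm replicate 2 (adjusted p = 0.0508, 0.0721 and 0.119).

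Genes of fibroblast or feeder cells moved in both directions. Of 15 such genes that are no members of the matrix set, 9 were tested. Their summed linear intensity was 3216 to 3310 on ESCm arrays and 4867 to 5343 on ESCf arrays, against 1305 to 1360 in EpiSCf and 1545 to 1734 in EpiSCm. In ES cells most of this sum came from 1 gene, Acta2, smooth muscle actin, so the sum mainly follows Acta2. Its mean levels were 11.36 in ESCm and 12.06 in ESCf against 8.69 in EpiSCm, with no detection in EpiSCf (5.21). In the female pair 5 of the 9 fell and 3 rose, and in the male pair 4 fell and 2 rose. The protease gene Mmp3 fell by 2.46 and 0.93 log2 units in the female and male pairs, while Mmp2, a protease of stromal cells, rose by 2.11 and 2.24. Their part in the matrix changes was not tested. Postn, Lum and Col1a2 were detected on 0 arrays, ES cells included, whereas Col1a1 and Col3a1 were detected on both arrays of ESCm and of ESCf. Whether the probes of the undetected genes respond to their RNA was not tested.

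Partners of the matrix genes gave mixed counts. Of 6 tested basement membrane linkers and proteoglycans, 5 fell in the female pair and 3 in the male pair, and 0 rose in either. Nidogen 1 (Nid1), which ties laminin to type IV collagen, fell by 3.73 and 2.83 log2 units. Crtap, a subunit of the collagen prolyl 3-hydroxylase complex, fell by 2.44 and 1.09. Of 17 tested collagen-processing genes, 4 rose and 3 fell in the female pair, and 7 rose and 4 fell in the male pair. The symbol search for integrins, the cell-surface receptors for matrix, tested 15 genes, among them Itgb3bp and Itgb1bp1, which are no integrin subunits. In the female pair 6 fell and 2 rose, with the epithelial laminin receptor subunit Itgb4 falling by 2.24, and in the male pair 3 fell and 4 rose.

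Between the embryonal carcinoma lines, 14 of the 37 genes were higher and 8 were lower in P19 EC than in F9 EC, where 55.1% of all genes were called, 28.0% as higher and 27% as lower. Tgfbi showed the largest change of any member in any comparison of 2 groups. It read 10.06 and 10.02 in F9 EC and 4.68 and 4.55 in P19 EC, where it was not detected, at least 20.6-fold lower (log2 -5.42, SE 0.15, adjusted p = 2.46e-15). Its second probe also fell (log2 -2.98). Lama1 read 9.45 and 9.14 in F9 EC, its highest group, and 6.47 and 6.60 in P19 EC, 6.79-fold lower (log2 -2.76, SE 0.34). Lamc1 was 3.66-fold lower, Timp1 2.53-fold lower and Sparc 1.58-fold lower in P19 EC, although the second Sparc probe was not called (log2 -0.21).

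The genes higher in P19 EC included 6 collagens, of 15 with a probe that passed, and 0 collagens were lower. Col9a2 read 8.16 and 8.09 against 5.69 and 5.62, at least 5.24-fold higher (adjusted p = 7.96e-09). Col5a1, a regulator of fibril diameter, was 5.19-fold higher (log2 2.38, SE 0.21) and its partner chain Col5a2 read 6.08 and 6.25 in P19 EC against 4.58 and 4.62. Lamb1, Loxl2 and Col16a1 were each undetected on both F9 EC arrays and at least 2.25-fold, 2.20-fold and 1.64-fold higher in P19 EC. Col4a1 was 2.22-fold higher and Col4a2 1.64-fold higher, the latter detected on 1 of 2 F9 EC arrays.

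Lamb2, detected on 1 of 2 P19 EC arrays, was called 1.68-fold lower there, but not without F9 EC replicate 2 (adjusted p = 0.199) or P19 EC replicate 2 (0.306), and the Col4a2 call was lost without F9 EC replicate 2 (0.0579). Genes of extraembryonic endoderm, a cell type that makes laminin and type IV collagen, had a summed intensity of 1014 to 1116 on F9 EC arrays and 762 to 786 on P19 EC arrays over 9 tested genes, of which 4 were higher and 1 was lower in P19 EC. Most of the F9 EC sum came from 1 gene, Sox7, with a mean of 9.68 there against 4.81 in P19 EC. The part of these endoderm genes in the laminin values was not tested. Pcolce, an enhancer of procollagen cleavage, was lower in P19 EC by -4.07 log2 units.

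With extra Sox2 in F9 cells, 5 of the 37 matrix genes rose and 1 fell. These made 16.2% of the members, where 9.72% of all genes were called, 5.36% as higher and 4.36% as lower. The fall was that of Tgfbi, from 10.06 and 10.02 in F9 EC to 7.01 and 6.90 in F9-Sox2, 8.48-fold (log2 -3.08, SE 0.15, adjusted p = 7.07e-11). Both of its probes fell, the second by -2.66. The paired arrays lay close together and the groups were far apart. The 5 rises were those of Col26a1, Lamb1, Timp3, Ccn2 and Timp4, the last undetected on all 4 arrays. Among them, Col26a1, an emilin-related collagen, went from 5.37 and 4.84 to 6.14 and 6.32, and Lamb1 from 4.86 and 5.05 to 6.05 and 6.0. Timp3 went from 5.14 and 4.58 to 5.77 and 5.93. All 3 were undetected on both F9 EC arrays and detected on both F9-Sox2 arrays, and were at least 1.41-fold, 1.22-fold and 1.08-fold higher.

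Ccn2, a secreted target of TGF-beta and YAP signalling, read 8.67 and 8.74 in F9 EC and 9.47 and 9.31 in F9-Sox2, 1.61-fold higher (log2 0.69, SE 0.13, adjusted p = 0.00161), a call lost under median scaling (0.0668). The Lamb1 call was lost without F9 EC replicate 1 (0.0587). Lama1, Lamc1, Col4a1, Col4a2 and Sparc were not called, with log2 changes of -0.24, -0.28, -0.17, -0.05 and 0.30. Of the 9 tested extraembryonic endoderm genes, 2 rose and 1 fell. Their sum of 627 to 633 in F9-Sox2 was below that of F9 EC, with Sox7 at a mean of 8.23 against 9.68 and Thbd at 5.96 against 4.68.

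In P19 cells, extra Sox2 came with 5 rises and 6 falls among the 37, where 10.4% of all genes were called, 5.89% as higher and 4.51% as lower. The rises were in 3 of the 4 Timp inhibitors and 2 matricellular genes, and the falls were in 5 collagens and Dcn. One of these collagens, Col26a1, was undetected on all 4 P19 arrays, so its call lies within background. Timp4 read 5.58 and 5.73 in P19 EC and 8.78 and 8.95 in P19-Sox2, 9.25-fold higher (log2 3.21, SE 0.18), with 1 of the 2 P19 EC arrays detecting it. Timp4 passed the detection filter through P19-Sox2 alone, so its rise there is a description with no test. Ccn2 read 8.11 and 8.20 against 10.90 and 10.70, 6.27-fold higher (log2 2.65, SE 0.13, adjusted p = 2.33e-10). Timp3 read 6.03 and 5.80 against 7.86 and 7.94, 3.95-fold higher. The P19-Sox2 arrays stood above the P19 EC arrays for all 3, and Timp4 was detected on both arrays in no other group.

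Timp1 rose 1.90-fold and Sparc 1.56-fold, although the second Sparc probe was not called (log2 0.13) and the call was lost under median scaling (adjusted p = 0.0926). Col5a2 fell below detection, from 6.08 and 6.25 to 5.01 and 4.73, at least 1.49-fold. It passed the detection filter through P19 EC alone, so its higher level there, against P19-Sox2 and against F9 EC, is a description with no test. Col4a2, Col18a1 and Col16a1 fell 1.78-fold, 1.79-fold and 1.67-fold, Col4a2 being detected on 1 of 2 P19-Sox2 arrays, and Dcn fell at least 1.24-fold. The second Dcn probe was not called (log2 -0.16), nor was 1 of the other 2 Col18a1 probes (log2 -0.69). P19-Sox2 replicate 2 read lower than its partner for several of these. Without it, the calls of Col4a2, Col18a1, Col16a1 and Dcn were lost (log2 -0.72, -0.58, -0.85 and -0.77). The Sparc call was lost without P19 EC replicate 1 (log2 0.50), and those of Dcn and Col16a1 too (-0.90 and -0.84). Those of Col4a2 and Col16a1 were lost without P19 EC replicate 2 (-0.73 and -0.63). The Col16a1 call was also lost without P19-Sox2 replicate 1 (-0.63).

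Lama1 read 6.47 and 6.60 in P19 EC and 6.26 and 5.02 in P19-Sox2, a difference that was not called (log2 -0.90, SE 0.34, adjusted p = 0.113) but was without P19-Sox2 replicate 1 (log2 -1.52, adjusted p = 0.012). The fibroblast list summed to 1050 to 1065 in P19 EC and 2610 to 3068 in P19-Sox2, where Acta2 rose by 4.19 log2 units and Twist1 fell by 1.00; its part in the matrix changes was not tested.

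The effects of Sox2 in F9 and P19 cells differed for 8 of the 37 genes, 4 in each direction, where 9.99% of all genes differed, 4.84% upward and 5.15% downward. Of the 5 rises in each line, 3 were shared (60.0% of each list): Ccn2, Timp3 and Timp4. Over all genes, 87 rose in both, 18.2% of the rises in F9 and 16.5% of those in P19 cells. Timp4 was undetected on all 4 F9 arrays and passed the detection filter through P19-Sox2 alone. Its place among the shared rises and its difference of F9 minus P19 (-2.27) are therefore descriptions with no test. The call of that difference was also lost on the authors' log2 values (adjusted p = 0.137). The P19 rise was the larger for Ccn2, by 1.96 log2 units (difference of F9 minus P19 -1.96, SE 0.18, adjusted p = 1.67e-06). Tgfbi differed by -3.17 (SE 0.21, adjusted p = 9.95e-09), with P19-Sox2 at 4.65 and 4.75, undetected as in P19 EC.

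On the arrays labelled Epi-Sox2f, which showed no rise of Sox2, 10 matrix genes were higher and 3 were lower than in EpiSCf, where 28.9% of all genes were called, 13.5% as higher and 15.3% as lower. The higher genes included 4 of the 5 matricellular genes. Tgfbi read 6.83 and 6.60 in EpiSCf and 9.73 and 9.75 in Epi-Sox2f, 8.14-fold higher (log2 3.02, SE 0.15, adjusted p = 1.97e-10), on both of its probes. Sparc read 9.36 and 9.29 against a mean of 10.99 with close arrays, 3.17-fold higher (log2 1.67, SE 0.13), again on both probes. Ccn1 was 2.91-fold higher, with 2 of its 3 probes called, and Ccn2 was 2.15-fold higher. Each of these had its Epi-Sox2f arrays above both EpiSCf arrays.

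Dcn was 2.18-fold higher, at 8.66 and 8.50, its highest group. The laminin chains Lamc1 and Lamb1 were 2.32-fold and 1.78-fold lower: Lamc1 read 9.35 and 9.38 in EpiSCf and 8.13 and 8.18 in Epi-Sox2f (log2 -1.21, SE 0.19, adjusted p = 0.000207). Timp3 was 1.68-fold lower. Col4a1, Col4a2 and Lama1 were not called (log2 -0.24, -0.44 and 0.16), the last pair undetected in both groups. On the authors' log2 values, the Dcn, Lamb1 and Timp3 calls were lost (adjusted p = 0.0736, 0.131 and 0.0544) and Col4a2 was called lower (log2 -1.03, adjusted p = 0.0142).

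Without EpiSCf replicate 1, fewer members were called than with all arrays. The calls of Lamb1 and Timp3 were lost there (log2 -0.79 and -0.50), as was the Lamb1 call without Epi-Sox2f replicate 1 (-0.60). The call of Loxl2, at least 1.47-fold higher, was lost without EpiSCf replicate 2 (log2 0.78) or Epi-Sox2f replicate 2 (0.92). Acta2 was also higher in Epi-Sox2f, by 3.97 log2 units, and the fibroblast list summed to 1743 to 1934 there; its part was not tested.

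In the male GOF18 EpiSCs kept in EpiSC medium, EpiSox2mL2 had 7 matrix genes higher and 2 lower than EpiSCm, where 24.3% of all genes were called, 12.9% as higher and 11.4% as lower. The share of members called was 24.3% as well. By role, 2 of 4 basement membrane collagens, 2 of 5 laminins, 2 of 5 matricellular genes and Bgn rose. Col4a2 read 8.0 and 7.63 in EpiSCm and 9.09 and 9.20 in EpiSox2mL2, 2.52-fold higher (log2 1.33, SE 0.19, adjusted p = 9.41e-05). Lamb3, a beta chain of epithelial laminin, read 5.86 and 5.31 against 6.76 and 6.73, 2.23-fold higher, with 1 of the 2 EpiSCm arrays detecting it. Tgfbi read 6.08 and 5.94 against 6.90 and 6.95, 1.88-fold higher, although its second probe was not called. EpiSox2mL2 lay above EpiSCm on both arrays for these 3 genes.

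Col4a1 read 9.62 and 9.18 in EpiSCm and 10.20 and 9.69 in EpiSox2mL2, its highest group, and was not called (log2 0.54, SE 0.22, adjusted p = 0.0766). It was called without EpiSCm replicate 1 (0.0467) or EpiSox2mL2 replicate 2 (0.0399). Lama1 was called 2.06-fold higher, Col18a1 1.57-fold higher and Bgn at least 1.17-fold higher. Fbln1, a fibulin of elastic fibres and basement membranes, was 1.68-fold lower (log2 -0.75, SE 0.15), and Timp2 was 1.90-fold lower. Of the 6 tested basement membrane linkers, 3 rose and 0 fell: Nid1, the heparan sulfate proteoglycan gene Hspg2 and the dystroglycan gene Dag1 rose by 1.14, 0.90 and 0.84 log2 units. Of the 15 genes of the integrin search, 5 rose and 2 fell. The integrin chains Itgb4 and Itga3, subunits of epithelial laminin receptors, rose by 2.56 and 1.15.

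The other 2 Col18a1 probes were not called (log2 0.06 and 0.19), and its call was lost with the mean of kept probes (log2 0.30, adjusted p = 0.235) and under median scaling (0.11). Of the other 2 Fbln1 probes, 1 was not called (log2 -0.17). Leaving out any of the 4 arrays of this comparison cost the Lama1 call (adjusted p = 0.082 to 0.133). The Timp2 and Col18a1 calls were lost without EpiSCm replicate 1 (0.13 and 0.117) or EpiSox2mL2 replicate 1 (0.0598 and 0.086). Under median scaling the split was 4 up and 2 down. Extraembryonic endoderm genes summed to 490 to 599 in EpiSCm and 795 to 856 in EpiSox2mL2, with 4 of 9 higher and 2 lower, and Acta2 rose by 2.45 log2 units; their part was not tested.

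The change from EpiSCf to the arrays labelled Epi-Sox2f and that from EpiSCm to EpiSox2mL2 differed for 16 of the 37 genes, 11 upward and 5 downward in female minus male, where 32.2% of all genes differed, 15% upward and 17.2% downward. Tgfbi differed by 2.11 (SE 0.21, adjusted p = 1.61e-06), Sparc by 1.97 (SE 0.19), Ccn1 by 1.61 (SE 0.28) and Col4a2 by -1.77 (SE 0.27, adjusted p = 0.000126). Shared rises were found for Tgfbi, Bgn and Ccn2, which are 30.0% of the 10 in the female and 42.9% of the 7 in the male cells. Over all genes, 157 rose in both, 13% and 13.6% of the rises. Sox2 itself was raised in EpiSox2mL2 and not on the arrays labelled Epi-Sox2f.

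**Figure D3:**
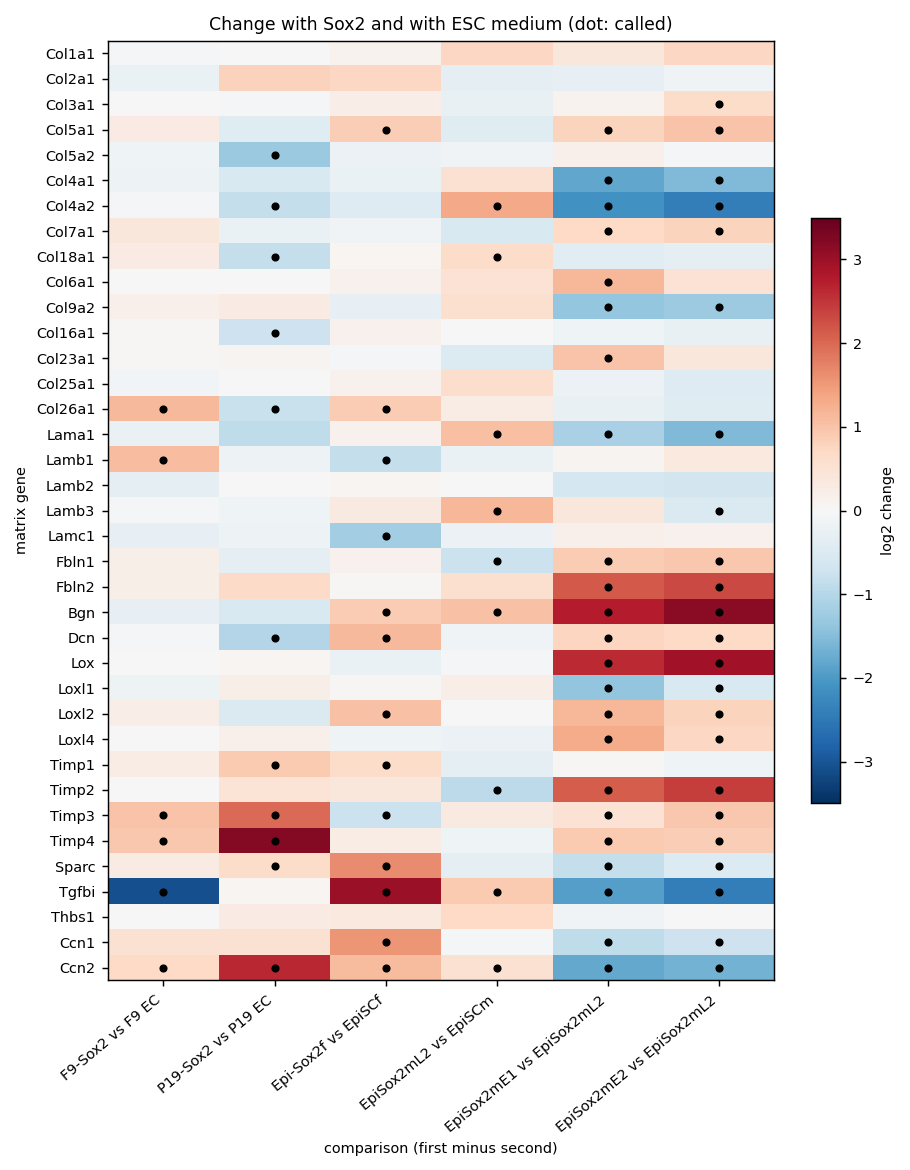
Log2 change of the 37 matrix genes (rows) in 6 comparisons (columns), on a colour scale from -3.5 to 3.5, with dots on calls. Of these, 4 set groups labelled as overexpressing Sox2 against parent cells, with Sox2 not raised in Epi-Sox2f. The other 2 set a group grown in ESC medium against EpiSox2mL2, grown in EpiSC medium. Tgfbi falls in F9-Sox2 and is higher in Epi-Sox2f, Timp4 and Ccn2 rise in P19-Sox2, and Bgn, Lox, Fbln2 and Timp2 rise in both ESC-medium columns where Col4a1 and Col4a2 fall.

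In ESC medium, the GOF18 lines had high levels of Bgn, Lox, Fbln2 and Timp2, the genes that were also high in ES cells, and lower type IV collagen than in EpiSC medium. Against EpiSox2mL2, 14 genes were higher and 9 lower in EpiSox2mE1, where 31.2% of all genes were called, 14% as higher and 17.2% as lower. In EpiSox2mE2, 13 were higher and 10 lower, where 35.1% of all genes were called, 15.7% as higher and 19.5% as lower. Against EpiSCm, 11 were higher and 8 lower in each, where 28.7% of all genes were called for EpiSox2mE1 (13.2% higher, 15.5% lower) and 28.4% for EpiSox2mE2 (12.4% higher, 16% lower). Both lines are set against the same 2 EpiSox2mL2 arrays and the same 2 EpiSCm arrays, so these 4 comparisons are not independent. The ESC-medium groups differ from EpiSox2mL2 in line and in the ESC-like label as well as in medium. No GOF18 group without extra Sox2 was grown in ESC medium. Medium, line and ESC-like state therefore cannot be told apart here. Loxl4 and Col23a1 passed the detection filter through EpiSox2mE1 alone. Their higher levels there, against EpiSox2mL2 or EpiSCm, are a description with no test.

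Bgn read 8.22 and 8.41 in EpiSox2mE1 and 8.95 and 8.53 in EpiSox2mE2, against 5.80 and 5.36 in EpiSox2mL2 and 4.51 and 4.58 in EpiSCm. Over EpiSox2mL2 it was 6.66-fold and 8.95-fold higher (log2 2.74 and 3.16, SE 0.22, adjusted p = 3.36e-08 and 6.43e-09). Over EpiSCm it was at least 7.81-fold and 10.5-fold higher. The ESC-medium arrays lay close together and above all 4 arrays in EpiSC medium, and below the 4 ES cell arrays at 9.33 to 9.66.

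Lox read 7.44 and 6.90 in EpiSox2mE1 and 7.17 and 7.78 in EpiSox2mE2, against 4.53 and 4.57 in EpiSox2mL2. It was at least 3.68-fold and 4.56-fold higher. Outside these groups and ES cells, no array of the other 8 groups detected it. Fbln2 read 8.59 and 8.17, and 8.52 and 8.56, against 6.42 and 6.03, 4.45-fold and 4.98-fold higher. Its dim second probe was called in EpiSox2mE2 (log2 0.89) and not in EpiSox2mE1. Timp2 read 8.36 and 8.52, and 8.56 and 8.93, against 6.25 and 6.39, 4.35-fold and 5.36-fold higher. All 3 genes had the 4 ESC-medium arrays above the EpiSox2mL2 arrays.

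Not every gene that separated ES cells from EpiSCs came back. Col1a1 was higher than in EpiSCm in both lines, at least 1.49-fold and 1.87-fold, and Timp3 was 1.77-fold and 2.39-fold higher. Col3a1 was detected on 1 of the 4 ESC-medium arrays, at 5.51, against 6.44 to 6.96 in ES cells. Lamb1 was detected on none of them (4.42 to 4.99) against 6.53 to 7.79 in ES cells. Loxl4 was detected on both EpiSox2mE1 arrays, at 6.16 and 5.47, and in no other group.

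The type IV collagens moved the other way. Col4a2 read 7.28 and 6.80 in EpiSox2mE1 and 6.64 and 6.84 in EpiSox2mE2, against 9.09 and 9.20 in EpiSox2mL2, 4.32-fold and 5.32-fold lower (log2 -2.11 and -2.41, SE 0.19, adjusted p = 1.99e-07 and 3.82e-08). Col4a1 read 8.23 and 8.02, and 8.16 and 8.64, against 10.20 and 9.69, 3.53-fold and 2.91-fold lower. Against EpiSCm both chains were also lower, Col4a1 by 2.43-fold and 2.00-fold and Col4a2 by 1.72-fold and 2.11-fold. With only the compared groups fitted, the Col4a1 call in EpiSox2mE2 and the Col4a2 call in EpiSox2mE1 were lost (adjusted p = 0.055 and 0.0533). The Col4a2 call in EpiSox2mE1 against EpiSCm was lost without EpiSCm replicate 1 (adjusted p = 0.0627) or EpiSox2mE1 replicate 2 (0.0906).

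Matricellular genes fell with them. Ccn2 read 10.82 and 10.57 in EpiSox2mE1 and 10.85 and 10.81 in EpiSox2mE2, against 12.47 and 12.48 in EpiSox2mL2, 3.44-fold and 3.13-fold lower (adjusted p = 9.47e-09 and 2.97e-08). Tgfbi was undetected on all 4 ESC-medium arrays and at least 2.74-fold and 2.76-fold lower than in EpiSox2mL2, although its dim second probe was called in neither line (log2 -0.10 and 0.03). Sparc was 1.80-fold and 1.38-fold lower, the second call being lost without EpiSox2mE2 replicate 2 (0.15) or EpiSox2mL2 replicate 2 (0.0675).

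Among the laminins, Lama1 was 2.19-fold lower in EpiSox2mE1 and 2.92-fold lower in EpiSox2mE2, where 1 of 2 arrays detected it, than in EpiSox2mL2. The first call was lost without EpiSox2mE1 replicate 1 (adjusted p = 0.201), EpiSox2mL2 replicate 1 (0.0682) or EpiSox2mL2 replicate 2 (0.074). Lamc1, by contrast, was not called in any of the 6 comparisons among the GOF18 groups, with log2 changes between -0.20 and 0.18. Among partner genes, 0 integrins of the search rose and 4 fell in EpiSox2mE1, and 0 rose and 2 fell in EpiSox2mE2. Hspg2 fell by 1.88 and 1.85 log2 units against EpiSox2mL2, Itgb4 fell by 3.47 and 2.88, and Itga3 fell by 3.14 in EpiSox2mE1 and fell by 3.11 in EpiSox2mE2.

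**Figure D4:**
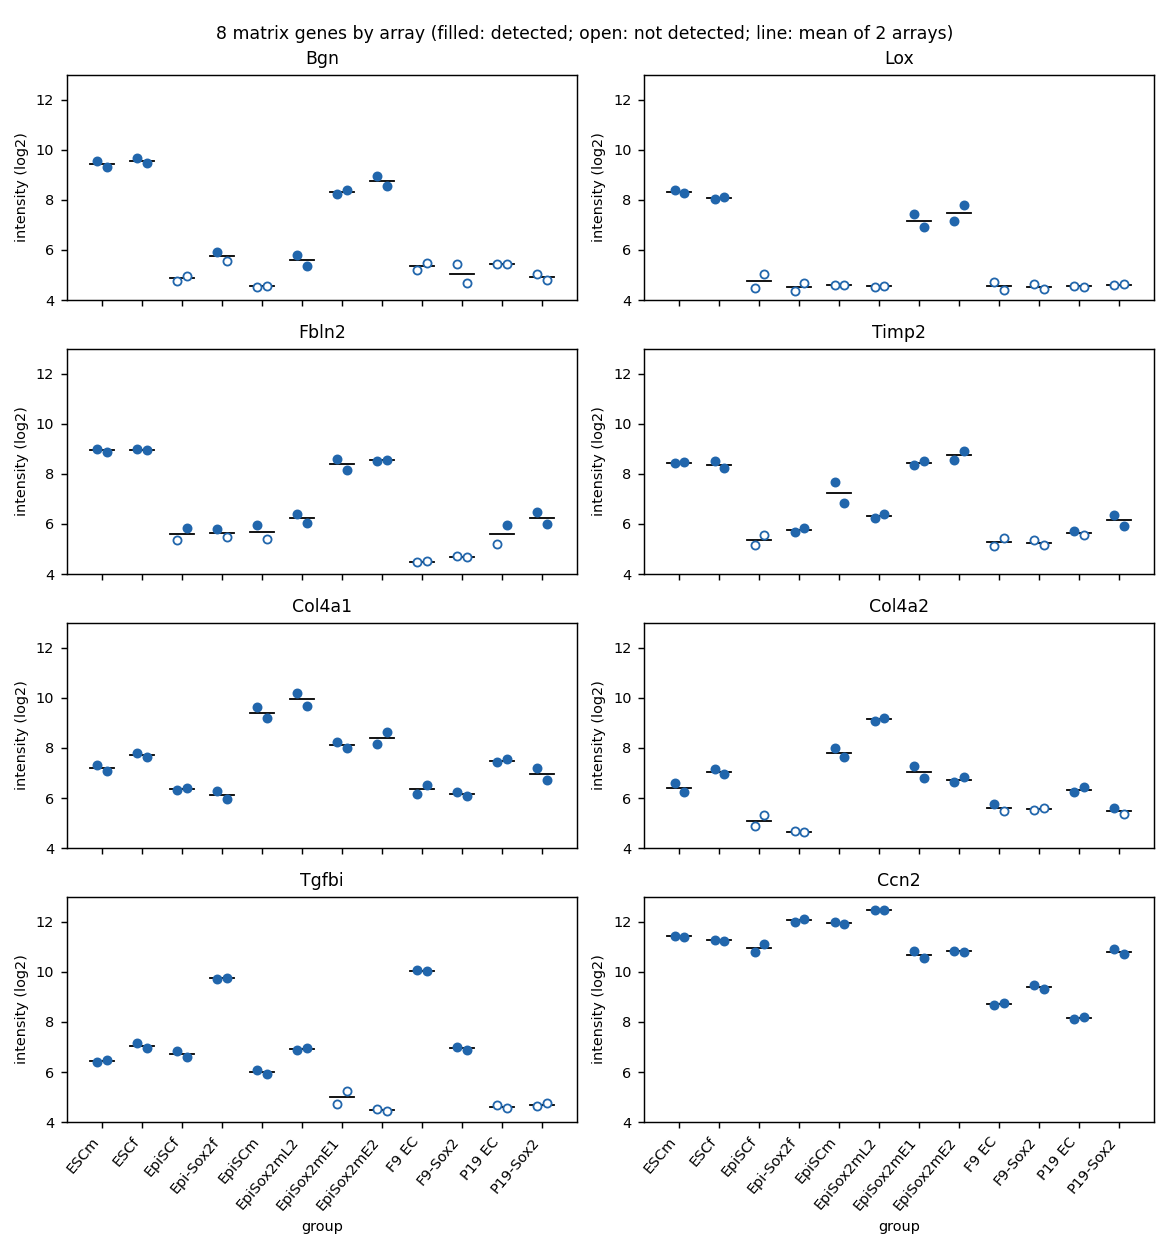
Log2 normalized intensity of 8 matrix genes on every array, by group, with filled points for detected and open points for undetected arrays and a line at the mean of 2. Bgn, Lox, Fbln2 and Timp2 are high in ES cells and in EpiSox2mE1 and EpiSox2mE2, while Col4a1, Col4a2 and Ccn2 peak in EpiSox2mL2 and Tgfbi peaks in F9 EC and Epi-Sox2f.

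The fibroblast list summed to 2033 to 2532 in EpiSox2mE1 and 2484 to 2509 in EpiSox2mE2, against 3301 to 3659 in EpiSox2mL2 and 1545 to 1734 in EpiSCm. In EpiSox2mL2 most of the sum came from Acta2 (mean 11.14). Acta2 fell by 0.87 and 0.97 log2 units against EpiSox2mL2, and Mmp3 rose by 1.05 and 0.78. Of the 9 tested genes of the list, 2 rose and 3 fell in EpiSox2mE1 and 3 rose and 2 fell in EpiSox2mE2 against EpiSox2mL2. Against EpiSCm, 3 rose and 3 fell in EpiSox2mE1, and 3 rose and 1 fell in EpiSox2mE2. Mmp3 was detected on 1 array of each ESC-medium group and on both arrays of each ES cell group. Cd44 was detected on 0 arrays of EpiSox2mE1, 1 of EpiSox2mE2, 2 of ESCm and 0 of ESCf. The part of such cells in the return of Bgn, Lox and Fbln2 was not tested. Under median scaling the median of all genes in EpiSox2mE2 was -0.25 against EpiSCm and -0.15 against EpiSox2mL2, and the members' splits there were 7 up and 10 down and 6 up and 11 down.

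The ESC-medium lines differed from each other in 2 of the 37 genes, where 2.38% of all genes were called, 1.12% as higher and 1.27% as lower. Lamb3 read 7.04 and 7.23 in EpiSox2mE1 and 6.09 and 6.38 in EpiSox2mE2, 1.87-fold lower in the latter (log2 -0.91, SE 0.19, adjusted p = 0.0123). Loxl1, which cross-links elastin, read 6.46 and 6.10 against 7.01 and 7.20, 1.77-fold higher (log2 0.83, SE 0.17, adjusted p = 0.0144). Both arrays of EpiSox2mE2 were the lower for Lamb3 and the higher for Loxl1. The Lamb3 call was lost without EpiSox2mE1 replicate 2 (0.116) or EpiSox2mE2 replicate 1 (0.095), and the Loxl1 call without EpiSox2mE1 replicate 2 (0.168) or EpiSox2mE2 replicate 2 (0.0739).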

How the data were processed

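RNA of 24 samples was measured on Illumina MouseRef-8 v2 BeadChips, from 300 ng of RNA each, per the labels' protocols. BeadStudio 3.2, RMA and lumi are named in the submitters' processing notes, without roles. The authors deposited non-normalized probe intensities with a detection p-value for each of 25697 probes on each array, and a processed log2 value per probe whose making is not given in the sources used here. An alternative used the authors' log2 values (r = 0.992 with the values used, over the tested genes).

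Limma 3.58.1 (R 4.3.3) corrected the intensities by normexp, with background parameters inferred from detection p-values and 16 added as offset. All arrays were then quantile normalized and log2 transformed. Platform annotation gave 1 gene symbol to 23978 probes and none to 1719, and 23962 matched RefSeq of GRCm38.p6 by Entrez ID, which supplied current symbols. The detection filter of the report left 13082 probes, 12324 with a symbol. For each gene the brightest of these probes on average was used, which gave 8932 genes, 2395 of them with more than 1 kept probe. Among the members, 9 had 12 other kept probes. In 180 pairs of other probe and comparison, both probes were called the same way in 49, opposite ways in 1, only the main one in 38, only the other in 9 and neither in 83.

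The limma model held 1 mean per group over 24 arrays, with 12 residual degrees of freedom and a prior of 5.58. The 12 comparisons of groups and 3 differences of effects were adjusted by Benjamini-Hochberg over 8932 genes within each, and called at adjusted p under 0.05. Standard errors of the members ran from 0.13 to 0.34 for comparisons of groups. With 2 arrays a group, whose cultures are not described beyond the words biological replicates, p-values measure the spread between these arrays. The number of arrays limits the precision. The test was checked on simulated data.

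Members and gene lists were chosen with earlier results of these data known. Members named with statistics in a comparison are up to 6 called ones a direction with the largest change, detected on both arrays of the higher group and not overlapping, plus Col4a1, Col4a2, Lama1, Lamb1, Lamc1 and Sparc. Differences of effects name up to 4 a direction, and lists up to 4 genes. Other members given with a fold, such as Timp1, Col5a1, Dcn, Fbln1 and Col5a2 in some comparisons, were chosen after their values were seen. Alternatives were median scaling, an offset of 50, no detection filter, the mean of kept probes, the authors' log2 values, the compared groups alone, the GOF18 groups and the others handled apart, the replicate number as a block, and leaving out each array. No deposited column was left unmapped.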

Additional observations from a re-analysis of the deposited data

Results flagged for a closer look

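The following differences of effects between 2 backgrounds passed the limma test of the difference itself, for up to 4 genes in each direction. All are log2 values of 1 contrast in 1 kind of cell minus a like contrast in another. For EpiSCs against ES cells, female minus male, the falls were -3.57 for Col4a1, -3.35 for Col4a2, -2.33 for Sparc and -2.07 for Col9a2. The opposite sign was found for Lamb1 (3.26), Dcn (2.20), Col18a1 (1.28) and Timp3 (0.71). Of the other 2 Col18a1 probes, 1 was called the same way (1.06) and 1 was not called (-0.24); the latter fell by 2.33 in the female pair, where the brightest was not called (0.36). The second Dcn probe was not called (0.37). The Timp3 call was lost on the authors' log2 values (adjusted p = 0.119) and without ESCf replicate 2, ESCm replicate 2, EpiSCf replicate 1 or EpiSCm replicate 1 (0.0762 to 0.160).

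For Sox2 in F9 minus P19 cells, the differences were -3.17 for Tgfbi, -2.27 for Timp4, -1.96 for Ccn2 and -0.99 for Timp3. They were 1.92 for Col26a1, 1.25 for Lamb1, 1.16 for Col5a2 and 1.14 for Col18a1. The Timp3 call was lost on the authors' values (log2 -0.55, adjusted p = 0.538), under median scaling (0.0715), with the compared groups alone (0.0519) and without F9 EC replicate 1, F9-Sox2 replicate 1, P19 EC replicate 2 or P19-Sox2 replicate 2 (0.0610 to 0.111). Leaving out the same arrays cost the Lamb1 call (0.0581 to 0.0967). The authors' values ended the calls of Lamb1, Col5a2 and Timp4 (0.0862, 0.0872 and 0.137). Of the other 2 Col18a1 probes, 1 was called (1.53) and 1 was not (0.64). Col26a1 was undetected on all 4 P19 arrays, Timp4 on all 4 F9 arrays and Col5a2 on all 4 F9 arrays, so the size of these differences rests in part on background. Timp4 and Col5a2 passed the detection filter through P19-Sox2 and P19 EC alone, so their differences are descriptions with no test.

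For the arrays labelled Epi-Sox2f over EpiSCf minus EpiSox2mL2 over EpiSCm, they were -1.77 for Col4a2, -1.07 for Timp3, -1.02 for Lamc1 and -0.85 for Lamb3. They were 2.11 for Tgfbi, 1.97 for Sparc, 1.61 for Ccn1 and 1.33 for Timp2. The Lamb3 call was lost on the authors' values (log2 -0.65, adjusted p = 0.405), under median scaling (-0.56, 0.148) and without Epi-Sox2f replicate 1, EpiSCf replicate 1, EpiSCm replicate 2 or EpiSox2mL2 replicate 1 (0.0526 to 0.105). Sox2 itself differed by -1.11 here (adjusted p = 0.00021), since it was raised in EpiSox2mL2 and not in Epi-Sox2f, so the contrasts are alike in label and not in Sox2 level. The first and last families cross the dimmer GOF18 arrays and the others, and line and array set cannot be told apart there.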

How the results depend on the processing

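Of 182 named member results, set against alternatives 2245 times, 2136 kept their side of the threshold, 101 kept direction but lost the call and 8 kept direction and gained it. A change of sign with a call in either version occurred 0 times. The 2136 include results called in neither version, whose sign was free to change. Counts of called members stayed within 1.5 times in 112 of 117 cases outside the leaving out of single arrays. The exceptions were EpiSox2mE2 against EpiSox2mE1 (2 in the report), with 1 under median scaling, 0 with the GOF18 groups handled apart and 0 with the compared groups alone; the difference of Sox2 effects between F9 and P19 (8), with 4 on the authors' log2 values; and EpiSox2mE2 against EpiSCm (19), with 8 when only the compared groups were fitted, which leaves fewer arrays to estimate the spread. The cause was not tested for the others. Under median scaling the up and down split moved by over 10 percentage points also for the difference between EpiSC pairs (6 up, 9 down, with a median over all genes of 0.47) and for F9 minus P19 (6 and 3). That scaling shifted the median of all genes to -0.19 for EpiSox2mE2 against EpiSox2mE1 and -0.11 in P19-Sox2.

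Leaving out 1 array gave 21 to 22 called members for EpiSCf against ESCf, 21 to 24 for EpiSCm against ESCm, 19 to 22 for P19 EC against F9 EC, 4 to 7 for F9-Sox2, 6 to 11 for P19-Sox2, 8 to 13 for Epi-Sox2f, 7 to 10 for EpiSox2mL2, 18 to 20 and 15 to 20 for EpiSox2mE1 and EpiSox2mE2 against EpiSCm, 18 to 21 and 17 to 23 for the same against EpiSox2mL2, and 1 to 4 between them. It gave 16 to 20, 6 to 10 and 11 to 17 for the 3 differences. A lone array of a group was assumed to vary like the other groups.

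Replicate numbers share only a number: deviations of same-numbered arrays correlated at -0.19 to 0.18 over 66 pairs of groups. With the replicate number as a block the counts were 22 for EpiSCf against ESCf and 26 for EpiSCm against ESCm, and it moved none of 15 counts by over 1.5 times. Slide as a block was not run, since the headers used here name no slide. Signal over background limits the genes near detection: folds against a group with no detecting array are lower bounds, and those against a group with 1 detecting array rest in part on a value not above background.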
